A study of Mus musculus with 5 samples.

Results

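The C/EBP family is described here by the CpG methylation of its 5 genes, *Cebpa*, *Cebpb*, *Cebpd*, *Cebpe* and *Cebpg*, in blasts of acute myeloid leukemia (AML) from mouse bone marrow. The genes were found by symbol among the 21755 protein-coding genes of the autosomes and the X chromosome. Whole-genome bisulfite sequencing reads an unmethylated cytosine as T and a methylated cytosine as C, and each such reading is a call. All 5 libraries came from C57BL/6 mice of the genotype Cebpa-/p30, in which the blasts had lost one *Cebpa* allele and made only p30, the short isoform of CEBPA, from the other. In 2 libraries (numbers 23 and 24) *Tet2* was intact, written Tet2+/+, and in 3 (numbers 5, 7 and 8) it was deleted, written Tet2-/-. TET2 is a dioxygenase that oxidizes methylated cytosine and so starts its removal. According to the methods of the study, bone marrow of individual donors was grown in irradiated hosts, and floxed alleles were deleted after transplantation by Mx1-Cre, an interferon-inducible recombinase that is not specific to one blood lineage. The sort kept live CD45.2+ donor cells without CD3, B220 and Ter119, which removes host leukocytes and lymphoid and erythroid cells but does not separate myeloid stages. The labels call the libraries biological replicates and give neither the age of the animals nor a batch.

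C/EBP proteins are basic leucine zipper (bZIP) transcription factors that bind DNA as pairs within the family or with related factors. CEBPA starts the granulocytic and monocytic program in progenitors, and CEBPE acts later, in the maturation of neutrophils and eosinophils and in the formation of secondary granules. CEBPB takes part in granulopoiesis under stress, CEBPD in the acute-phase response, and CEBPG lacks a strong activation domain and pairs with other bZIP proteins. Promoters rich in CpG are mostly unmethylated in normal cells, and many enhancers lose methylation in the cells that use them.

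The coverage was shallow, with 2.96 to 5.19 calls per CpG dyad (both strands of a CpG) in the 5 libraries, so calls were summed over regions and the methylation level is the share of methylated calls. Genome-wide, the 2 controls were at 62.3% and 67.3% and the Tet2-/- libraries between 68.4% and 74.8%, so that all Tet2-/- libraries lay above both controls. Control 23, at 67.3%, was nearer to Tet2-/- library 8, at 68.4%, than to control 24, at 62.3%. In *Tet2* itself, the longest stretch with no call in any Tet2-/- library held 36 dyads (chromosome 3, 133466411 to 133468352) and had 128 and 151 calls in the Tet2+/+ libraries. Promoters of 10 myeloid and progenitor markers had a median level of 12.7% in Tet2+/+ and 21.5% in Tet2-/-, and those of 5 T cell markers 71.1% and 87.0%. For 5 B cell markers the medians were 34.6% and 42.7%, for 4 erythroid markers 19.8% and 27.7%, and for 5 non-hematopoietic markers 21.7% and 35.8%. None of the tested marker promoters passed the test for a difference between the groups. *Elane*, *Itgam*, *Cd177* and *Ptprc*, which belong to the myeloid list and are named after their values were seen, were above 20% in both groups. The part of cell composition in the results was not tested, and a change within cells cannot be told apart from a change in the mix of cells.

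Of the 5 genes, 4 had CpG-rich promoters and 1 did not. Promoters reached from 1000 bp before to 1000 bp after the 5′ end of the gene. The ratio of observed to expected CpG was 0.876 in *Cebpa*, 0.909 in *Cebpb*, 0.837 in *Cebpd* and 0.836 in *Cebpg*. It was 0.305 in *Cebpe*, whose promoter held 51 CpG dyads against 144 to 231 in the others. On GRCm38, *Cebpa* (ENSMUSG00000034957.10) lies on chromosome 7 from 35119293 to 35121928, and *Cebpg* (ENSMUSG00000056216.9) on the same chromosome from 35046422 to 35056573 on the minus strand. Their 5′ ends are 62.7 kb apart, and their upstream flanks share 37.3 kb. *Cebpb* (ENSMUSG00000056501.3) lies on chromosome 2 from 167688915 to 167690418, where the first part of *Tmem189* overlaps it on the other strand. *Cebpd* (ENSMUSG00000071637.5) lies on chromosome 16 from 15887286 to 15891031 and overlaps *Spidr* on the other strand. *Cebpe* (ENSMUSG00000052435.7) lies on chromosome 14 from 54710360 to 54712174 on the minus strand and has 2 exons, while *Cebpa*, *Cebpb* and *Cebpd* each form 1 exon block.

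The following 4 stretches of GRCm38 show where the results lie, and are printed from 5′ to 3′ in the direction of the gene with each CpG in capitals. The first is the most CpG-dense stretch of the *Cebpe* gene body outside the untranslated regions, in the coding part of the second exon, and is shown because it gained methylation in Tet2-/- (chr14:54710542-54710841, minus strand). The second is the densest stretch of an element 6 kb downstream of the *Cebpe* 5′ end (chr14:54706604-54706903, minus strand). It lies beside the gain and stayed low. The third is the RefSeq promoter of *Cebpa* up to its start (chr7:35119043-35119292, plus strand, GRCm38.p6), and the last is the densest stretch of the element 37 kb downstream of *Cebpa* (chr7:35156534-35156833, plus strand). Both had few or no methylated calls in every library.
Cebpe second exon: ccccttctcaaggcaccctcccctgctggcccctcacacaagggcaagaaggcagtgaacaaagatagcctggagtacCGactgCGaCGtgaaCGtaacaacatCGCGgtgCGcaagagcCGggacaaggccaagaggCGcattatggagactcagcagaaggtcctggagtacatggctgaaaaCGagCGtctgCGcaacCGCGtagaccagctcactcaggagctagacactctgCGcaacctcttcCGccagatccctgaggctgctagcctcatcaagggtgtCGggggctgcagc
Cebpe element 6 kb downstream: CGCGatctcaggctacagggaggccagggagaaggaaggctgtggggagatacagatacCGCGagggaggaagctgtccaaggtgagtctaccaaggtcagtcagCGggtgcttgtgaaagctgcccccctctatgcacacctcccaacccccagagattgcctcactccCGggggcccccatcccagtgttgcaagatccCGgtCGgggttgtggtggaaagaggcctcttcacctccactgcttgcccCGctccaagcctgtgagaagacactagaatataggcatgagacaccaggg
Cebpa promoter: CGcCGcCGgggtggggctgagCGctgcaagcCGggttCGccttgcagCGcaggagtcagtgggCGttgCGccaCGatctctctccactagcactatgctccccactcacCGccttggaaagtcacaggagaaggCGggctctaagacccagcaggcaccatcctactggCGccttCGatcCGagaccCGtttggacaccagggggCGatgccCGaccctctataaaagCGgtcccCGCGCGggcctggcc
Cebpa element 37 kb downstream: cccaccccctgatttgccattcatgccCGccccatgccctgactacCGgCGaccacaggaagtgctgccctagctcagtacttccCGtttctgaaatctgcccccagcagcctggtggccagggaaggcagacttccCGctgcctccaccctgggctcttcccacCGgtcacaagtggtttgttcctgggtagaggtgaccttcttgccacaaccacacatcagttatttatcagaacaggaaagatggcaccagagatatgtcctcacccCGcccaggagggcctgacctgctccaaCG

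In the stretch of the second *Cebpe* exon, with 17 CpGs, methylation was 4.55% and 1.33% in the Tet2+/+ libraries and 21.6%, 56.5% and 79.1% in the Tet2-/- libraries. In the stretch of the element 6 kb downstream, with 9 CpGs, it was 0% in both Tet2+/+ libraries and 0%, 3.08% and 2.27% in Tet2-/- libraries 5, 7 and 8, from 44 to 65 calls per library. The printed *Cebpa* promoter, with 22 CpGs, was at 1.09% and 0.775% in Tet2+/+ and at 0%, 0.775% and 0% in Tet2-/-. The stretch of the element 37 kb downstream of *Cebpa*, with 8 CpGs, was at 0% and 1.92% in Tet2+/+ and at 0% in each Tet2-/- library. It had only 22 to 60 calls per library, and a count of 0 among so few calls allows levels well above 0. RefSeq promoters were at hand for 3 of the 5 genes, *Cebpa*, *Cebpb* and *Cebpg*. None of their 250 bases before the start held the C/EBP palindrome TTGCGCAA or its looser form TTGCNNAA on either strand, letters found in 0.164% and 9.56% of 32851 RefSeq promoters of that length. The letters CCAAT occurred 2 times in the *Cebpg* promoter and not in the other 2, and in 33.8% of all promoters on either strand. In the whole area from 50 kb before to 50 kb after each gene, TTGCGCAA did not occur at any of the 5. Sites that differ from the letters given were not sought, so absence here refers to these letters alone.

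To ask whether loss of *Tet2* changed the promoters, all promoters of protein-coding genes were tested. *Cebpe* was the only one of the 5 past the threshold, an adjusted p below 0.05 in edgeR's quasi-likelihood test. Its promoter (chromosome 14, 54711174 to 54713174) was at 2.92% and 2.43% in controls 23 and 24 and at 9.58% in library 5, 21.5% in library 7 and 27.0% in library 8. The groups did not overlap, which held with higher Tet2-/- levels in 32.8% of all promoters tested. The Tet2-/- libraries of *Cebpe* spread over a wide range. On average it rose from 2.68% ± 0.351 (SD, n = 2) in Tet2+/+ to 19.4% ± 8.91 (SD, n = 3) in Tet2-/-, by 16.7 points (edgeR adjusted p = 0.0410). A permutation test on the 5 library levels alone did not separate the groups (exact permutation p = 0.2). Counting error alone gave 95% Wilson intervals of 1.04% to 5.56% in library 24 and 21.0% to 34.1% in library 8. Of 19455 promoters tested, 1.06% passed with higher methylation in Tet2-/- and 0.0154% with lower, and the *Cebpe* promoter ranked 1477 by the size of its difference. The call was lost when control 23 (edgeR adjusted p = 0.132), control 24 (0.485), library 7 (0.0949) or library 8 (0.0927) was left out, with 500 bp on each side (0.0684), and in limma (0.0612, and 0.205 with libraries centred on their medians).

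The other 4 promoters were low in every library. The *Cebpa* promoter was at 0.947% and 1.07% in Tet2+/+ and at 0.727%, 0.623% and 0.694% in Tet2-/-, from 288 to 935 calls. All Tet2-/- libraries were below both controls there, by 0.327 points on average, and the difference did not pass (edgeR adjusted p = 0.611). Such an order held in 4.05% of all promoters tested. These levels are as low as those of mitochondrial DNA, where 0.807% to 0.989% of calls were methylated. The part of incomplete conversion in them was not tested. The *Cebpd* promoter was at 0.690% and 1.17% in Tet2+/+ and at 1.66%, 1.55% and 2.12% in Tet2-/- (edgeR adjusted p = 0.359). The *Cebpb* promoter was the most variable of the 4, at 4.04% and 3.71% in Tet2+/+ and at 2.17%, 8.16% and 5.27% in Tet2-/- (edgeR adjusted p = 0.798). Most of its methylation lay in the 1 kb upstream of the 5′ end, within *Tmem189*, where the level was 15.3% and 13.1% in Tet2+/+ and 8.10%, 36.3% and 18.5% in Tet2-/-. The *Cebpg* promoter was between 0.299% and 1.24% in all libraries (edgeR adjusted p = 0.804). The differences of these 4 promoters were between -0.327 and 1.33 points, beside a median of 2.22 points over all promoters tested.

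**Figure D1:**
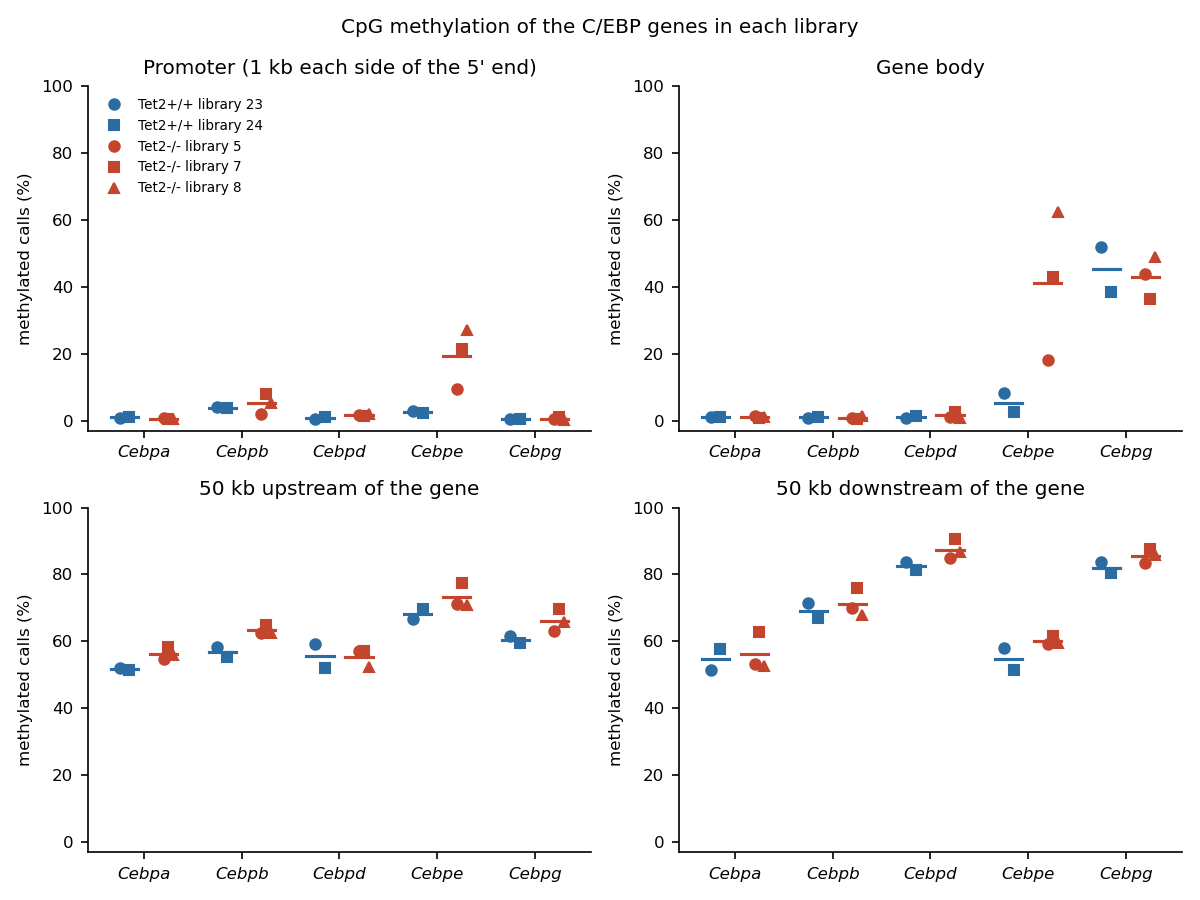
Methylation level in percent of calls (vertical axis) of the promoter, the gene body and the 50 kb on each side for the 5 genes (horizontal axis). Each point is a library, with Tet2+/+ in blue and Tet2-/- in red, and the bar is the group mean. *Cebpe* stands apart in promoter and gene body, with Tet2-/- bodies at 18.1% to 62.5% and Tet2+/+ bodies at 2.53% and 8.42%.

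In gene bodies, *Cebpe* was again the only member past the threshold. Its body (57 dyads, 190 to 440 calls) was at 8.42% and 2.53% in controls 23 and 24 and at 18.1% in library 5, 43.0% in library 7 and 62.5% in library 8. Every Tet2-/- library was above both controls, which held in 46.0% of all bodies tested. The lowest and highest Tet2-/- library differed more from each other than library 5 differed from the controls. The 95% Wilson intervals were 14.6% to 22.2% in library 5 and 55.5% to 69.0% in library 8. They cover counting error only and take calls as independent, although one fragment can give calls at several neighbouring CpGs. On average it rose from 5.48% ± 4.16 (SD, n = 2) in Tet2+/+ to 41.2% ± 22.3 (SD, n = 3) in Tet2-/-, by 35.7 points (edgeR adjusted p = 7.47e-08). The 5 library levels alone gave an exact permutation p of 0.2. Of 20715 gene bodies tested, 15.5% passed with higher methylation in Tet2-/- and 0.0676% with lower, so that 1 of 5 members is near the background in number. By the size of its difference, the *Cebpe* body ranked 29 of all bodies, and the median difference was 4.95 points. The call was lost without Tet2+/+ library 24 (edgeR adjusted p = 0.0931, difference 32.8 points) and in limma (adjusted p = 0.0613, and 0.216 with libraries centred on their medians). Left-out libraries otherwise gave edgeR adjusted p between 2.54e-11 and 0.00102.

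The bodies of *Cebpa*, *Cebpb* and *Cebpd*, which are short and CpG-rich, were at 0.486% to 2.61% in all libraries, with edgeR adjusted p of 0.983, 0.662 and 0.529. The longer body of *Cebpg* was at 51.9% and 38.6% in Tet2+/+ and at 43.9%, 36.5% and 48.8% in Tet2-/- (edgeR adjusted p = 0.781), and the groups overlapped. Within *Cebpg*, the level changed along the gene, and the last exon block and second intron were on average higher in Tet2-/-. The body difference of -2.22 points turned above 0 without the first 1000 bp. The first exon block was between 0% and 1.61%, the last block, mostly 3′ untranslated region, between 85.1% and 96.3%. Its second intron was at 69.0% and 67.7% in Tet2+/+ and at 73.2%, 77.8% and 86.1% in Tet2-/-, a difference of 10.7 points (exact permutation p = 0.2). With 2 libraries against 3 the exact test has 10 splits and cannot go below 0.1.

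The gain at *Cebpe* began at the 5′ end and ran downstream. In the 1 kb upstream of the 5′ end, 0 of 77 and 0 of 76 calls were methylated in Tet2+/+, which allows levels of up to 3.90% and 3.95%, and the Tet2-/- libraries were at 0.917%, 2.29% and 2.67%. The first exon was at 4.71% and 3.28% in Tet2+/+ and at 14.1%, 31.6% and 48.4% in Tet2-/-, a difference of 27.4 points. The second exon was at 6.25% and 1.15% in Tet2+/+ and at 21.4%, 54.9% and 80.0% in Tet2-/-, a difference of 48.4 points. In both exons the 3 Tet2-/- libraries stood in the same order and above both controls (exact permutation p = 0.2 each). The intron, with only 5 dyads and 19 to 33 calls, was at 28.0% and 3.57% in Tet2+/+ and at 24.2%, 45.5% and 57.9% in Tet2-/-, so that library 5 lay between the controls. The 1 kb beyond the 3′ end was at 50.8% and 19.8% in Tet2+/+ and at 68.8%, 76.7% and 90.0% in Tet2-/-, a difference of 43.2 points (exact permutation p = 0.1). The controls lay far apart there.

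**Figure D2:**
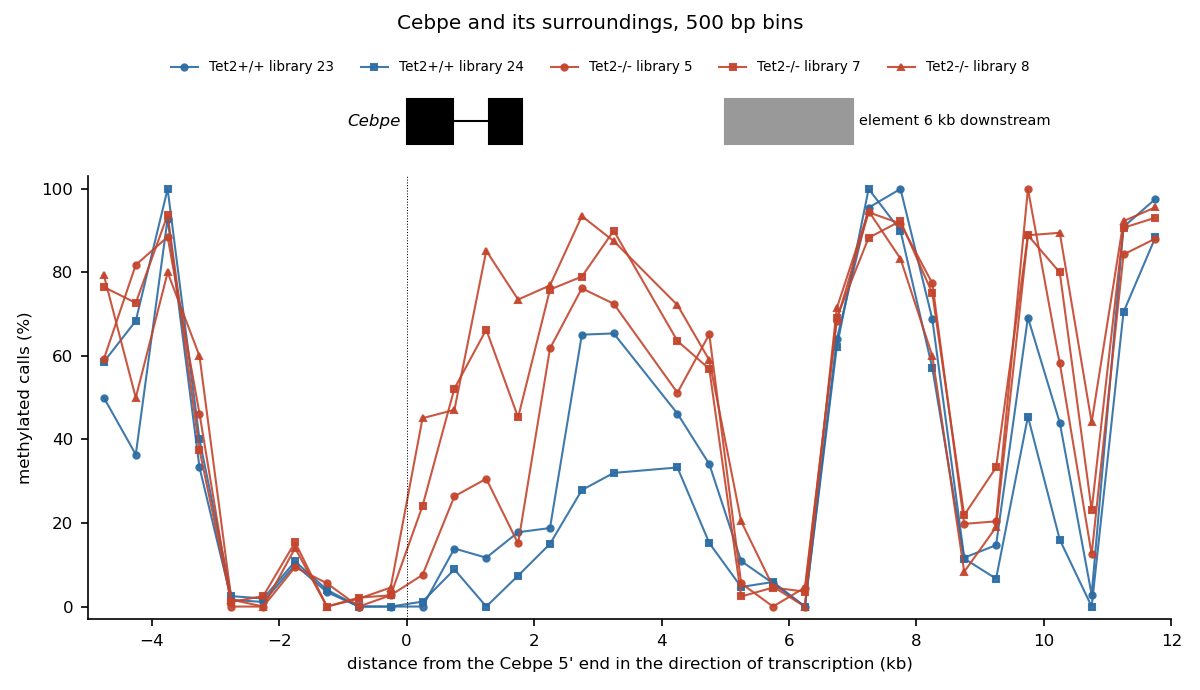
Methylation level in percent of calls (vertical axis) in bins of 500 bp around the *Cebpe* 5′ end (horizontal axis, distance in kb along the direction of transcription), for bins with at least 5 calls in every library. Each line is a library, black boxes are the exons and the grey box is the element 6 kb downstream. From the 5′ end to about 5 kb the red Tet2-/- lines mostly run above the blue Tet2+/+ lines, and in the element the lines come together.

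Regions that stayed low lay on both sides of the gained stretch. From -3 kb to the 5′ end, the 500 bp bins were at 0% to 15.4% in all libraries. Downstream, the element 5 to 7 kb from the 5′ end (chromosome 14, 54705174 to 54707174), a known enhancer of *Cebpe* in neutrophil precursors, was at 18.8% and 15.7% in Tet2+/+ and at 12%, 13.8% and 21.4% in Tet2-/-. Tet2+/+ averaged 17.3% ± 2.18 (SD, n = 2) and Tet2-/- 15.8% ± 4.99 (SD, n = 3), with a difference of -1.50 points (exact permutation p = 0.800, 0.800 adjusted over 2 elements). With 1 library left out the difference lay between -4.33 and 0.374 points, and it was above 0 without control 23 or library 5. Its bins from 5 to 6.5 kb were between 0% and 20.4%, and the bin centred at 6.75 kb between 62.1% and 71.4%. Widened to 4 kb, the element took in part of the gained stretch and was at 35.1% and 27.6% in Tet2+/+ and at 40.9%, 44.8% and 41.3% in Tet2-/-, a difference of 11 points (exact permutation p = 0.1). Beyond the element, 2 bins chosen after their values were seen were again higher in Tet2-/-. The bin centred at 10.25 kb was at 44.0% and 16.0% in Tet2+/+ and at 58.3%, 80.0% and 89.5% in Tet2-/-, and the bin at 10.75 kb at 2.86% and 0% in Tet2+/+ and at 12.5%, 23.1% and 44.1% in Tet2-/-. Single bins were not tested.

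The *Cebpa* locus was low in the gene and in its enhancer. The element 36 to 38 kb downstream of the 5′ end (chromosome 7, 35155293 to 35157293, outside annotated genes) is a myeloid enhancer of *Cebpa*. Of its calls, 0 of 73 and 3 of 138 were methylated in Tet2+/+ libraries 23 and 24, and 2 of 102, 1 of 114 and 0 of 54 in Tet2-/- libraries 5, 7 and 8. The levels were 0% and 2.17% in Tet2+/+ and 2.0%, 0.877% and 0% in Tet2-/-, where a count of 0 allows up to 4.11% in library 23 and 5.56% in library 8. The difference was -0.141 points (exact permutation p = 0.800). With 1 library left out it lay between -1.23 and 0.946 points, above 0 without control 24 or library 8, and at this depth a change of a few points was not detectable.

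Around each gene, the unbroken run of 1 kb windows below 20% was measured. It was 6 kb long at *Cebpa* in both Tet2+/+ libraries and 8, 5 and 8 kb in Tet2-/-, and 2 kb at *Cebpg* in every library. At *Cebpb* it was 3 kb in all libraries but Tet2-/- library 7, with 2 kb, and at *Cebpd* 4 kb in all but the same library, with 3 kb. At *Cebpe* it was 5 kb in both Tet2+/+ libraries and 4, 3 and 3 kb in Tet2-/-. There the 3 kb upstream were low in every library, and the downstream part was 2 kb in Tet2+/+ and 1, 0 and 0 kb in Tet2-/- (exact permutation p = 0.2, 1.00 adjusted over 5 genes).

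**Figure D3:**
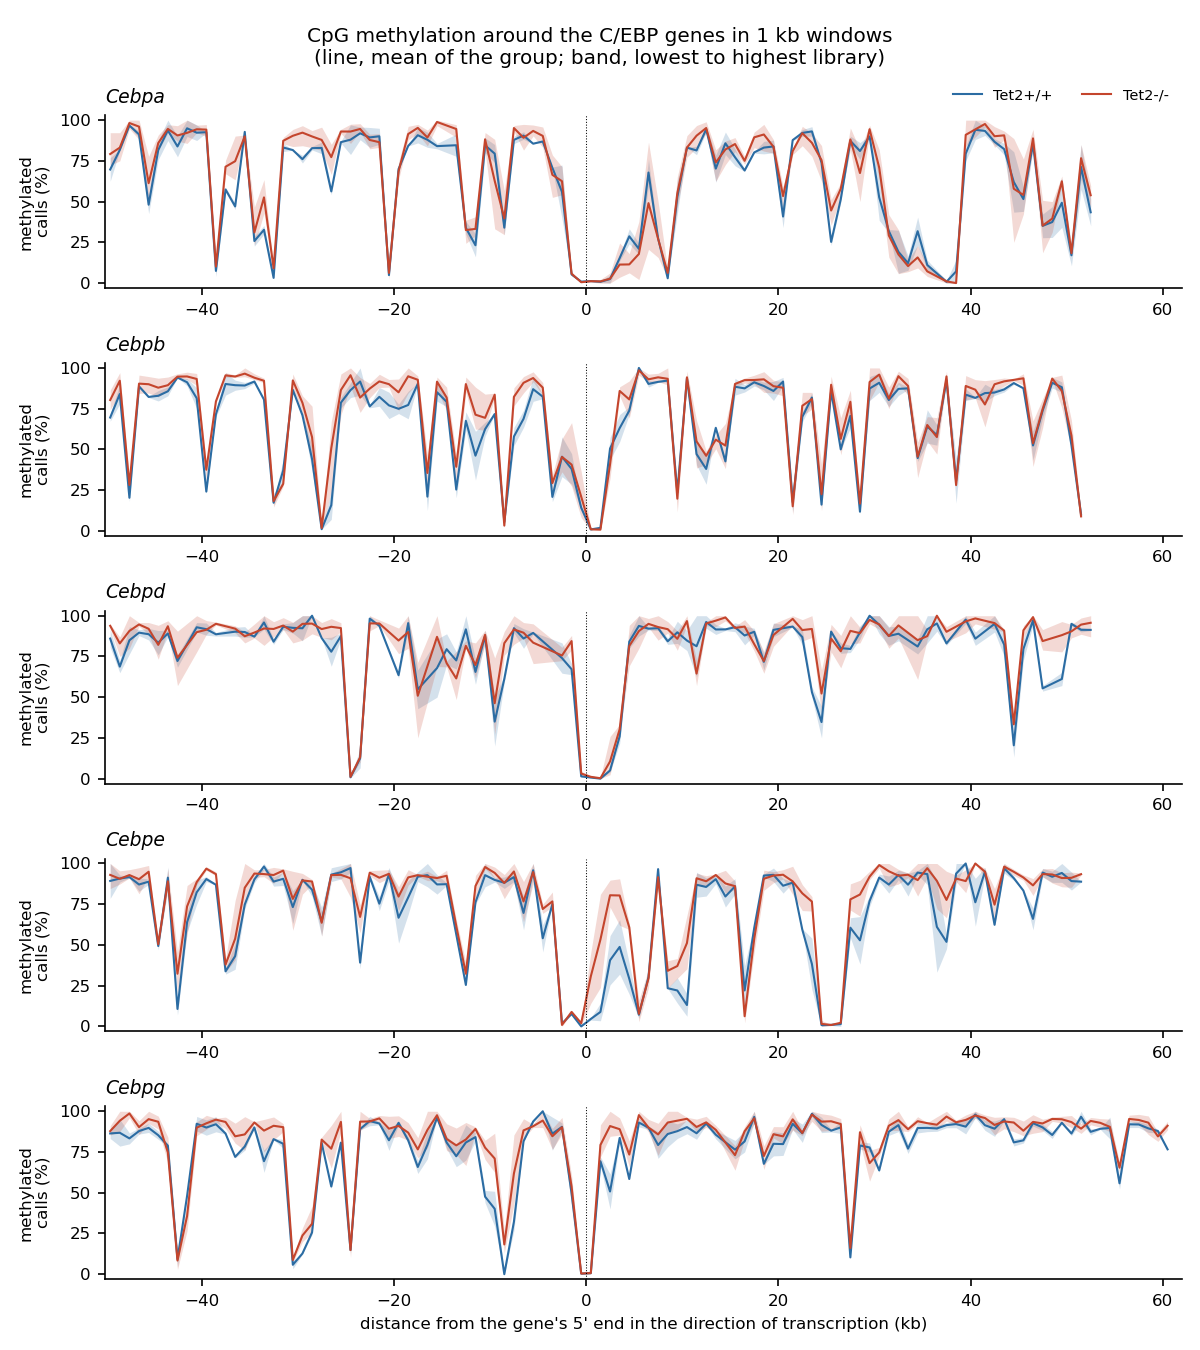
Methylation level in percent of calls (vertical axis) in 1 kb windows from 50 kb before to 50 kb after each gene, by distance from the 5′ end in kb (horizontal axis). Lines are group means, Tet2+/+ in blue and Tet2-/- in red, and bands reach from the lowest to the highest library. The 5′ end of each gene lies in or at the edge of a trough of low methylation, and the lines part most visibly just downstream of the *Cebpe* 5′ end.

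The flanks of 50 kb were higher in Tet2-/- at most genes, beside a difference of 6.52 points over all CpG dyads of the genome. Upstream of *Cebpb* the level was 58.4% and 55.3% in Tet2+/+ and 62.5%, 65.0% and 62.5% in Tet2-/-, a difference of 6.52 points (exact permutation p = 0.1). Downstream of *Cebpe* it was 58.1% and 51.4% in Tet2+/+ and 59.2%, 61.7% and 59.6% in Tet2-/-, a difference of 5.42 points (exact permutation p = 0.1), which was 2.05 points without control 24 and 8.80 points without control 23. Over the 10 flanks the differences were between -0.0779 points, upstream of *Cebpd*, and 6.52 points, and every p adjusted over the 10 flanks was 0.333 or more. The flanks upstream of *Cebpa* and *Cebpg* share sequence.

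To find where within these areas the difference lay, 1 kb windows were tested over the whole genome. In the areas of the 5 genes, 362 different windows had at least 20 calls in every library. Of these, 8 passed with higher methylation in Tet2-/- and 0 with lower, which is 2.21% and close to the 2.28% of all 1047054 windows. Lower windows made up 0.00936% of all. In 109 of the 362 windows, 30.1%, all Tet2-/- libraries were above both controls, beside 32.9% of all windows. In 9 windows, 2.49%, all were below both controls, beside 2.06% of all windows. Among these was the *Cebpa* window at 4.21 kb, named after its values were seen, with 24.1% and 28.6% in Tet2+/+ and 4.35%, 17.0% and 9.52% in Tet2-/- (edgeR adjusted p = 0.178). The median difference was 3.86 points, beside 5.96 points over all windows. *Cebpe* held 5 of the 8, *Cebpb* 2, *Cebpg* 1, and *Cebpa* and *Cebpd* 0. At *Cebpa* 7 of 89 windows and at *Cebpd* 4 of 40 had an unadjusted edgeR p under 0.05. Over the whole genome this held for a larger share, 171064 of 1047054 windows. At each of *Cebpa* and *Cebpd* edgeR's likelihood ratio test called 1 window and limma 0.

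In the *Cebpe* area, the smallest p was in the window centred at 1.67 kb from the 5′ end, which covers the second exon. It was at 12.1% and 3.67% in Tet2+/+ and at 24.6%, 57.2% and 80.4% in Tet2-/-, a difference of 46.2 points (edgeR adjusted p = 0.00170). The window beside it at 2.67 kb, outside annotated genes, was at 61.2% and 27.6% in Tet2+/+ and at 74.9%, 79.0% and 90.7% in Tet2-/- (edgeR adjusted p = 0.0228). A window at 23.7 kb, in *1700123O20Rik*, was at 52.8% and 23.1% in Tet2+/+ and at 79.7%, 70.5% and 75.0% in Tet2-/- (edgeR adjusted p = 0.0455). In these 3 windows library 24 was the lowest, and in the latter 2 the controls lay far apart. The window at 0.673 kb, in the first exon and the intron, was at 8.60% and 4.24% in Tet2+/+ and at 16.0%, 36.9% and 60.2% in Tet2-/- (edgeR adjusted p = 0.0125). Far upstream, the window at -42.3 kb, in the amino acid transporter gene *Slc7a8*, was at 2.46% and 2.56% in Tet2+/+ and at 16.7%, 33.0% and 10.2% in Tet2-/- (edgeR adjusted p = 0.0189), with no overlap. These last 2 windows are outside the rule for named windows and were added after their values were seen. None of the 5 passed without Tet2+/+ library 24 (edgeR adjusted p between 0.213 and 0.854), and none in limma with libraries centred on their medians (0.0965 to 0.328). Without control 24 the differences at 2.67 and 23.7 kb were 20.3 and 22.3 points, against 37.1 points each over all libraries. The call at 23.7 kb was also lost in limma (adjusted p = 0.0567), with a minimum of 10 calls (edgeR adjusted p = 0.0613) and without library 5 or 8 (0.147 and 0.0743). Without library 8 the calls at 2.67 and 0.673 kb were lost (0.0948 and 0.0876), and without control 23 or library 7 the call at -42.3 kb (0.169 and 0.0832).

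Among the other genes, the call that held under the most settings lay upstream of *Cebpg*. The window centred at -7.93 kb (chromosome 7, 35064001 to 35065000), in the noncoding gene *Gm45096*, was at 2.44% and 0% in Tet2+/+ and at 18.7%, 53.8% and 25.0% in Tet2-/-, a difference of 31.3 points (edgeR adjusted p = 0.00179). It also passed in limma without centring of libraries (adjusted p = 0.00201) and with libraries centred on their medians (0.0325), and not without Tet2+/+ library 24 (edgeR adjusted p = 0.306). With 1 library left out the difference lay between 20.6 points, without library 7, and 38.2 points. Upstream of *Cebpb*, the window at -26.4 kb, in *Tmem189* and the antisense gene *Gm14320*, was at 15.2% and 31.5% in Tet2+/+ and at 74.6%, 78.7% and 31.9% in Tet2-/- (edgeR adjusted p = 0.0226). Library 8 was level with control 24 there. The window at -12.4 kb, also in *Tmem189*, was at 72.0% and 69.4% in Tet2+/+ and at 90.7%, 94.7% and 87.8% in Tet2-/- (edgeR adjusted p = 0.0497). In limma the first passed without centring of libraries (adjusted p = 0.0423) and not with it (0.292), and the second passed in neither (0.0719 and 0.317). The second was also lost with a minimum of 10 calls (edgeR adjusted p = 0.0656) and over dyads called in all libraries (0.0506). With 1 library left out it kept its call without library 8 (edgeR adjusted p = 0.00234) and not without any of the others (0.0975 to 0.253), and the second lost it whichever library was left out (0.0564 to 0.589).

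No 1 kb window near *Cebpa* or *Cebpd* passed in the quasi-likelihood test. The smallest p near *Cebpa* was at -32.8 kb, in the noncoding gene *Gm35611*, with levels of 1.23% and 2.16% in Tet2+/+ and 10.5%, 8.45% and 6.67% in Tet2-/- (edgeR adjusted p = 0.0698). Near *Cebpd* it was at 47.2 kb, in *Spidr*, with 58.2% and 55.6% in Tet2+/+ and 81.0%, 90.9% and 85.7% in Tet2-/- (edgeR adjusted p = 0.0659), and the 2 kb window around it passed with 26.2 points (edgeR adjusted p = 0.0350). In both windows the groups did not overlap.

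**Figure D4:**
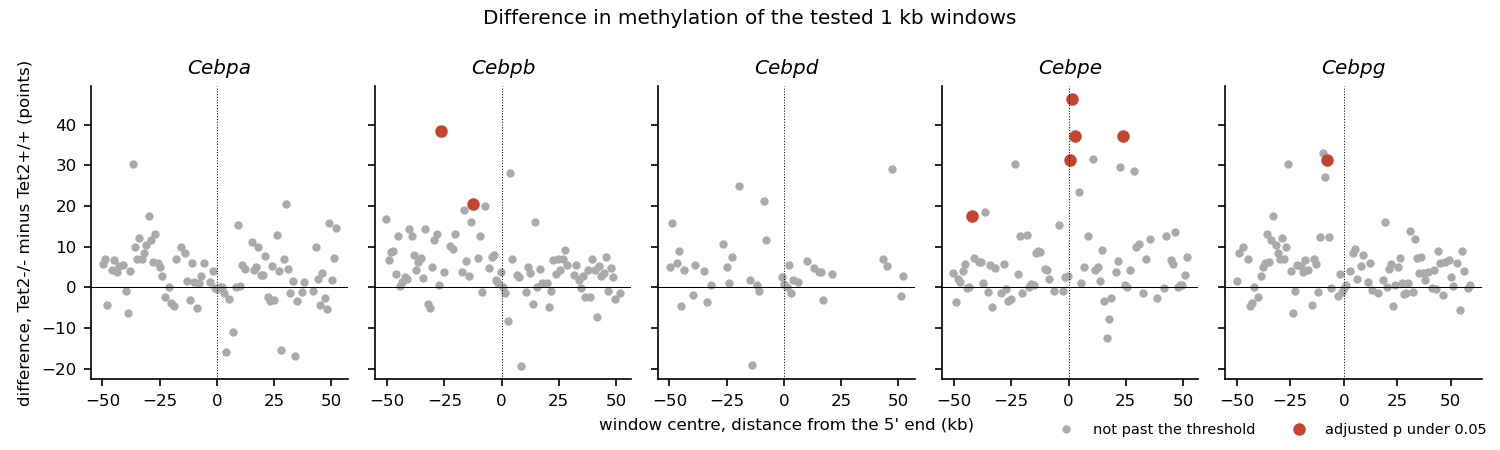
Difference of group means in points, Tet2-/- minus Tet2+/+ (vertical axis), of every tested 1 kb window by distance of its centre from the 5′ end in kb (horizontal axis), one panel per gene. Red points passed edgeR's adjusted p of 0.05 and grey points did not. The 8 red points are all above 0, and 3 of them lie within 3 kb downstream of the *Cebpe* 5′ end.

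The number of calls per dyad differed between libraries at some of these genes. In Tet2+/+ library 24, the flanks of *Cebpa* and *Cebpg* had 215% and 212% of the mean autosomal coverage, where the other 4 libraries had 113% to 124%. The excess reached over 1.40 Mb (chromosome 7, 33900001 to 35300000, counted in blocks of 100 kb over 1.5 times the mean of the other libraries), which holds both genes. Its part in the levels was not tested. Within this stretch, libraries 23 and 24 were at 0.947% and 1.07% in the *Cebpa* promoter, at 51.9% and 38.6% in the *Cebpg* body and at 51.5% and 57.8% in the flank downstream of *Cebpa*. Relative to the flanks, the *Cebpa* promoter had 57.2% and 59.5% of the calls in Tet2+/+ and 53.3%, 59.7% and 38% in Tet2-/-. The body had 24% to 53.6%, lowest in library 8. A deleted allele and poor recovery of CpG-rich sequence cannot be told apart in these shares. At *Cebpb* and *Cebpd* the promoter had 60.1% and 96.7% of the flank's coverage in Tet2+/+ and 87.3% and 136% in Tet2-/-, with no overlap between groups (exact permutation p = 0.1 each). The bodies of both genes, and the flanks of *Cebpd* relative to all autosomal dyads, showed the same order. The share of all promoters with such an order was not computed, so it cannot be read as particular to these genes. At *Cebpe* the promoter had 82.0% to 114%, and the groups overlapped. Chromosome 2, which carries *Cebpb*, had 81.7% of the autosomal coverage in Tet2-/- library 5 and 98.5% to 101% in the other libraries. The part of this in the levels was not tested.

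To look beyond the genes themselves, the central CpG of the C/EBP palindrome TTGCGCAA was measured at all 2120 places where it occurs on the autosomes and X, with 6825 to 11682 calls per library. Its level was 78.4% and 73.2% in Tet2+/+ and 76.7%, 80.5% and 75.9% in Tet2-/-. The groups overlapped, with means of 75.8% ± 3.72 (SD, n = 2) and 77.7% ± 2.42 (SD, n = 3) and a difference of 1.92 points (exact permutation p = 0.6). Without control 24 it was -0.7 points, and with any 1 library left out it lay between -0.7 and 4.5 points. For comparison, the CpG of the CREB and ATF palindrome TGACGTCA was at 61.0% and 54.1% in Tet2+/+ and at 67.1%, 71.6% and 65.0% in Tet2-/-, a difference of 10.4 points (exact permutation p = 0.1). The CpG of the E-box CACGTG differed by 9.83 points (exact permutation p = 0.2), and all CpG dyads by 6.52 points (exact permutation p = 0.2). Without control 24 the CREB and ATF palindrome differed by 6.90 points and all CpG dyads by 4.07 points. The difference between a motif and all CpGs was compared in each library after the values were seen. CpGs of the C/EBP palindrome lay 11.1 and 10.8 points above all CpGs in Tet2+/+ and 5.78, 5.68 and 7.56 points above in Tet2-/-, a difference of -4.60 points without overlap (exact permutation p = 0.1, the smallest possible). The same measure moved by 3.84 points for the CREB and ATF palindrome and by 3.30 points for the E-box (exact permutation p = 0.1 each).

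**Figure D5:**
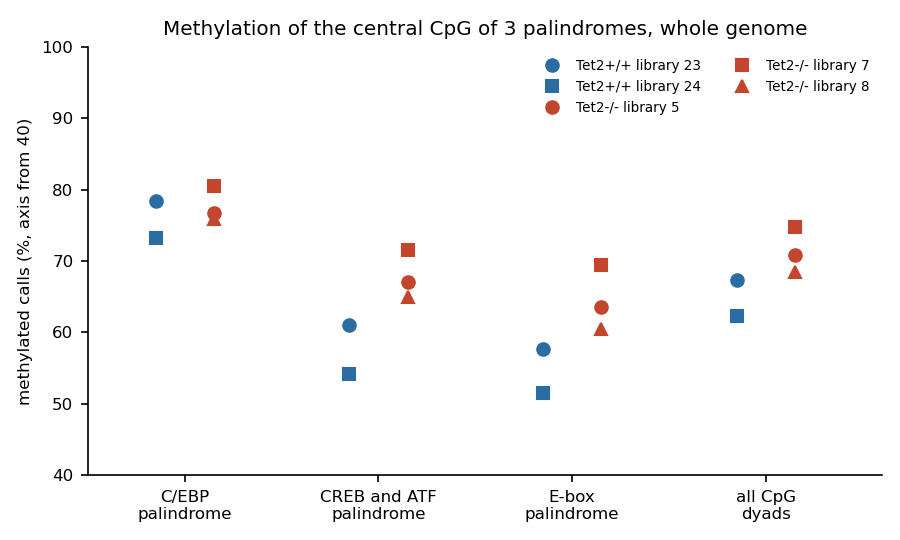
Methylation level in percent of calls (vertical axis, from 40%) of the central CpG of 3 palindromes and of all CpG dyads over the genome (horizontal axis). Each point is a library, Tet2+/+ in blue and Tet2-/- in red. The groups overlap at the C/EBP palindrome, 73.2% to 78.4% against 75.9% to 80.5%, and not at the others.

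In addition, 2 lists of genes connected with the family were counted. The first held 29 regulators of C/EBP proteins and bZIP partners, with 30 annotated genes since *Ddit3* has 2 entries. None of the 30 promoters passed in edgeR's quasi-likelihood test, beside 1.07% of all promoters called in either direction, with a median difference of 0.417 points beside 2.22 points over all promoters. Of the 30 bodies, 5 passed with higher methylation and 0 with lower, beside 15.5% of all bodies, and the median difference was 2.18 points beside 4.95 points (5.41 beside 6.87 points without control 23). *Trib1*, a pseudokinase, was at 13.9% and 10.9% in Tet2+/+ and at 24.6%, 25.7% and 25.9% in Tet2-/-. The difference was 13.0 points (edgeR adjusted p = 3.76e-05). *Trib1* was tight within Tet2-/-, and the groups did not overlap. In 46.0% of all bodies tested, all Tet2-/- libraries were above both controls. *Gfi1*, a repressor in granulocyte development, differed by 16.3 points, with control 23 at 44.2% above library 5 at 37.9% (edgeR adjusted p = 0.00195). It rested on control 24, at 18.3%, and was 3.30 points without it and 29.3 points without control 23. The longer entry of *Ddit3* (CHOP, a bZIP partner), *Hlf* (a bZIP factor of stem cells) and *Spi1* (PU.1, a partner of C/EBP proteins in myeloid cells) differed by 16.2, 14.2 and 11.1 points (edgeR adjusted p = 0.0294, 0.00596 and 0.0372), without overlap. Without control 24 these differences fell to 9.78, 9.09 and 6.43 points. *Ddit3* also lost its call without library 5 or 7 (edgeR adjusted p = 0.0830 and 0.0702), and *Spi1* without library 5, 7 or 8 (0.103, 0.0965 and 0.0590). The shorter *Ddit3* entry, within the longer one, was at 15.3% and 11.5% in Tet2+/+ and at 15.2%, 25.4% and 18.8% in Tet2-/-, with overlap (difference 6.40 points, edgeR adjusted p = 0.330). With 1 library left out its difference lay between 3.61 and 8.67 points. Without library 8, 4 bodies passed with higher and 1 with lower methylation, *Atf5*, a bZIP factor (edgeR adjusted p = 0.0460). Over all libraries *Atf5* was at 46.8% and 41.3% in Tet2+/+ and at 28.1%, 28.0% and 34.5% in Tet2-/- (edgeR adjusted p = 0.0696).

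The second list held 25 genes known to be controlled by C/EBP factors in myeloid cells. Of 24 promoters tested, 0 passed in edgeR's quasi-likelihood test, beside 1.07% of all promoters called in either direction, and the median difference was 3.03 points beside 2.22 points over all promoters. Without control 24 it was 0.819 beside 1.54 points, and the order turned. Of 25 bodies, 5 passed with higher methylation and 0 with lower, beside 15.5% of all bodies called higher, and the median difference of 2.83 points was below the 4.95 points over all bodies (5.09 and 6.87 points without control 23). Without library 8 there was also 1 lower call, *Csf2ra*, a receptor subunit for GM-CSF (edgeR adjusted p = 0.0131, against 0.409 over all libraries). Its body was at 60.8% and 56.2% in Tet2+/+ and at 59.9%, 25.2% and 72.4% in Tet2-/-. Only library 7 was below both controls, and without library 7 the difference was 7.69 points. *Mpo*, the myeloperoxidase of primary granules, was at 15.0% and 9.74% in Tet2+/+ and at 14.7%, 48.5% and 40.9% in Tet2-/-, a difference of 22.3 points in which library 5 lay among the controls (edgeR adjusted p = 3.77e-06). *Mmp8*, the neutrophil collagenase, was at 43.6% and 31.5% in Tet2+/+ and at 61.5%, 70.1% and 65.3% in Tet2-/- (difference 28.0 points, edgeR adjusted p = 0.000644). *Mmp9* (gelatinase), *Ltf* (lactoferrin) and *Prtn3* (proteinase 3) differed by 17.5, 8.16 and 5.60 points (edgeR adjusted p = 0.000296, 0.0233 and 0.0167). No control overlapped with Tet2-/- there, as in the 46.0% of all bodies where Tet2-/- was higher without overlap. *Ltf* lost its call without control 23, library 5 or library 7 (edgeR adjusted p = 0.103, 0.0907 and 0.0922), and *Prtn3* without control 23 or library 7 (0.106 and 0.283). The *Prtn3* difference was 2.66 points without library 7. None of the named bodies of either list that passed over all libraries did so without control 24, which leaves 1 Tet2+/+ library. Calls also became rare over all bodies in that fit, and the median difference over all bodies fell from 4.95 to 3.04 points. The fit without control 23 leaves 1 Tet2+/+ library as well. There calls did not become rare over all bodies, and the median difference rose to 6.87 points.

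The genes with the levels most like each member were sought over 20 values, the promoter, body and both flanks in each library, among 19199 protein-coding genes. The nearest to *Cebpa* was *Gm10382*, with a root mean square difference of 2.42 points, followed by *Fahd1* (2.99) and *Mt1* (3.17). *Gpx1* (1.88), *Pcbp1* (3.47) and *Gadd45g* (3.51) were nearest to *Cebpb*, *Sox4* (3.20), *Tssk6* (3.42) and *Rps27* (4.23) to *Cebpd*, and *Pnn* (2.81), *Mpc2* (4.15) and *Cdk9* (4.16) to *Cebpg*. *Cebpe* had no gene as close, with *Phospho1* at 9.64 points, *Lrrc24* at 9.89 points and *Arl10* at 10.0 points. The body of *Phospho1* was at 12.9% in Tet2+/+ and 33.2% in Tet2-/- on average, against 5.48% and 41.2% in *Cebpe*.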

How the data were processed

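Whole-genome bisulfite libraries of sorted leukemic bone marrow (2 Cebpa-/p30 Tet2+/+, 3 Cebpa-/p30 Tet2-/-) were compared. The authors deposited, for each library, counts of methylated and unmethylated reads at every CpG cytosine of GRCm38. Per the labels and the published methods, reads were trimmed with Trim Galore 0.4.3, checked with FastQC 0.11.7, aligned with Bismark 0.19.1 in non-directional mode on Bowtie 2, and deduplicated. Bisulfite does not separate 5-methylcytosine from 5-hydroxymethylcytosine, the product of TET2, and incomplete conversion raises levels.

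Both strands of a CpG were summed, and regions (GENCODE vM21) needed 20 calls in every library. Totals were 63111735 to 110752967 calls per library. edgeR 4.0.16 (R 4.3.3) tested methylated against unmethylated counts by quasi-likelihood over all promoters, gene bodies or 1 kb windows, with Benjamini-Hochberg adjustment and a threshold of 0.05. Single values were tested by a two-sided exact permutation test over libraries (smallest p 0.1). Limma 3.58.1 was run on log2 ratios of the counts with 2 added to each. Wilson intervals and limits for a count of 0 (3 calls) cover counting error only. The labels do not name the animals, so p-values refer to these libraries only. edgeR estimates the spread of a region partly from all regions of its kind, with 3 residual degrees of freedom per region. Its p is thus not a measure of the spread at that region alone. The exact test uses only the 5 values of the region. Named were the 5 genes, up to 3 windows per gene with the largest difference past the threshold (otherwise the smallest p), up to 5 genes per list with the largest difference, and the 3 nearest genes by level. Members and lists were chosen with earlier results of these data known. The test procedure was also run on simulated data without a shift of whole libraries. That run cannot show how the test fares where 1 library decides a call. Alternatives to each choice are given in the closing section.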

Additional observations from a re-analysis of the deposited data

How the results depend on the processing

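Of the comparisons of the 5 genes, the *Cebpe* calls depended on the test and on single libraries, while its direction held under every alternative run. The number of the 5 promoters past the threshold, 1, became 0 in limma with or without subtraction of library medians and with 500 bp on each side, and was 0 to 1 with 1 library left out. The number of gene bodies, 1, became 0 in limma with or without subtraction of library medians, and was 0 to 1 with 1 library left out. The 8 windows became 14 in edgeR's likelihood ratio test, 1 in limma after subtraction of library medians, and 0 to 7 with 1 library left out, with 0 without Tet2+/+ library 24, 5 without library 23 or library 7 and 4 without library 8. Without Tet2+/+ library 24, calls became rare over all promoters and bodies. Without library 23 they became rare over promoters but not over bodies. In gene lists, the 5 bodies of each list became 0 after subtraction of library medians, where 0.00483% of all bodies were called. With 1 library left out, they were 0 to 7 for the regulators and bZIP partners and 0 to 5 for the controlled genes, with 0 without Tet2+/+ library 24 in both and 3 without library 23 or library 7 in the latter. The promoters of the controlled genes, 0 in the quasi-likelihood test, gave 1 in the likelihood ratio test. Widened to 4 kb, the elements differed by -1.75 points (*Cebpa*) and 11 points (*Cebpe*). Relative to all autosomal dyads, the *Cebpa* promoter coverage differed by -36.3 points. It was 68.1% in library 23, 128% in library 24 and 64.6%, 74.0% and 46.6% in Tet2-/-. Library 23 thus lay among the Tet2-/- libraries, and library 24 carries the coverage excess around this gene.

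None of the differences that changed sign had passed in the quasi-likelihood test over all libraries. After subtraction of library medians the log2 ratios were -0.256 (*Cebpb*) and -0.333 (*Cebpg*) for promoters and -0.271 (*Cebpa*) and -0.207 (*Cebpd*) for bodies. Promoters with 500 bp on each side gave -0.134 points (*Cebpb*), and with 2000 bp 0.0772 (*Cebpa*), -0.240 (*Cebpd*) and -0.828 (*Cebpg*). The *Cebpa* body gave -0.163 over dyads called in all libraries and -0.0147 after thinning, and the *Cebpg* body 5.28 without its first 1000 bp. With 1 library left out, ranges were -0.152 to 2.84 (*Cebpb* promoter), -0.176 to 0.296 (*Cebpg* promoter), -0.122 to 0.191 (*Cebpa* body), -0.404 to 0.149 (*Cebpb* body), -0.0778 to 0.766 (*Cebpd* body) and -8.86 to 4.41 (*Cebpg* body). Of all promoters, 1.07% were called in the quasi-likelihood test, 4.72% in the likelihood ratio test and 0.0463% in limma after subtraction of library medians. Differences with no call also changed sign with 1 library left out at the elements (-1.23 to 0.946 points at *Cebpa*, -4.33 to 0.374 at *Cebpe*), at the C/EBP palindrome (-0.7 to 4.5) and in the flanks downstream of *Cebpa* (-1.66 to 4.73) and *Cebpb* (-0.189 to 4.31) and upstream of *Cebpd* (-3.63 to 3.47, and 4.99 without windows that overlap a promoter). The causes were not tested. No paired analysis was possible because the libraries of the 2 groups share no replicate number. With 2.96 to 5.19 calls per dyad, single CpGs could not be compared.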
